A study of Mus musculus with 25 samples.

Results

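The genes Entpd1, Nt5e, Cd38, P2rx7, Adora2a and Ada, which handle or sense extracellular ATP, NAD and adenosine, were followed in CD8+ T cells taken from B16F10 tumours, a transplanted mouse melanoma. They were chosen by name, as surface enzymes and purine receptors, and make 6 of the 23366 gene symbols in the deposited table. That Entpd1 and Nt5e go in opposite directions in these libraries was part of the choice, so their directions are described here and are not independent evidence. All mice were C57BL/6. The table holds 25 bulk libraries: 3 from Prdm1/c-Maf cDKO mice (conditional double knockout), 3 from Prdm1 cKO mice (conditional knockout), 3 from c-Maf cKO mice and 16 from wild-type mice. Prdm1 encodes the transcription factor Blimp-1, and Maf encodes the transcription factor c-Maf. Which line or Cre deletes the genes was not given in the sources used here. GEO's labels do not say whether libraries came from separate animals, so the p-values measure the spread between libraries. Each library was made with an adapted SMART-Seq 2 method from a lysate of about 2000 cells on average.

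Cells under stress and dying cells release ATP, which alerts immune cells. CD39, encoded by Entpd1, removes phosphates from ATP and ADP down to AMP. CD73, encoded by Nt5e, turns AMP into adenosine. Adenosine acts on the receptor encoded by Adora2a, which raises cAMP in T cells and restrains their activation, and adenosine deaminase, encoded by Ada, converts adenosine to inosine. CD38 consumes NAD and opens another route to adenosine. P2rx7 encodes an ATP-gated ion channel that, in mice, NAD can also trigger through the ART2 surface enzymes. CD39 is known as a marker of exhausted and tumour-reactive CD8+ T cells, whereas naive and memory CD8+ T cells carry CD73.

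Promoter sequence was matched for 5 of the 6 genes and searched because the deleted genes encode DNA-binding factors. The windows of Entpd1, Nt5e and Cd38 and the first of P2rx7 are printed. Each window is the 250 bases before an annotated start, from RefSeq on GRCm38.p6, written 5′ to 3′ on the strand of the gene. Entpd1 has 2 annotated starts, at chr19:40612116-40612365 and chr19:40659520-40659769, both on the plus strand. The Nt5e window is chr9:88327359-88327608, the Cd38 window chr5:43868559-43868808 and the first P2rx7 window chr5:122643677-122643926, all on the plus strand. Capitals mark motif matches. The sequences are given 1 per line.
Entpd1 first start: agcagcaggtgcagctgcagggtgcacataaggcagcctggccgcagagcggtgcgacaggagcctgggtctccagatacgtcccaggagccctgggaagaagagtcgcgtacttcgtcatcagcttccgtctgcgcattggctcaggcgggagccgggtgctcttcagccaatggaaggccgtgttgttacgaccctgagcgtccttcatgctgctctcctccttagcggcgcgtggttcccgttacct
Entpd1 second start: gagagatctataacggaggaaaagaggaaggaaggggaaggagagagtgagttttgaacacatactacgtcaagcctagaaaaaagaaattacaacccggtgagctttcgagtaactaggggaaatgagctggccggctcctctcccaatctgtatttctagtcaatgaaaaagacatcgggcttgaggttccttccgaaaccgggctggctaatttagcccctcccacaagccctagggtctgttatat
Nt5e: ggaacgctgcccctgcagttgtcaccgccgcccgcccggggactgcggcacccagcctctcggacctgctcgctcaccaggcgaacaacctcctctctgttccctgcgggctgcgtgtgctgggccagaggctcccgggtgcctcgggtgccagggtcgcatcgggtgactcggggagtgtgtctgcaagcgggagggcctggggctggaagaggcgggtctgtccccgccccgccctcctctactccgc
Cd38: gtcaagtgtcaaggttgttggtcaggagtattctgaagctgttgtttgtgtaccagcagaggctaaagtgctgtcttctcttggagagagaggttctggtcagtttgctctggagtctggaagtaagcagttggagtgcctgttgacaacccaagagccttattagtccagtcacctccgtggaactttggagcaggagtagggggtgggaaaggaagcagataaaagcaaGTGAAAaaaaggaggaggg
P2rx7 first start: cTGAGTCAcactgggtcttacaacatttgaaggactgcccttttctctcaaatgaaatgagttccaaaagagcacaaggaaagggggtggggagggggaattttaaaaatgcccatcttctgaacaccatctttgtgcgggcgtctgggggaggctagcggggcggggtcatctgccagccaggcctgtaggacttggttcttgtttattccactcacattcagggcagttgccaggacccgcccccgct
The letters GTGAAA, found within Blimp-1 sites, the letters TGCTGA of a Maf recognition element, and TGACTCA, the core that Maf and AP-1 factors share, were searched on both strands. GTGAAA stands once in the Cd38 window, 19 bases before the start. TGACTCA stands once in the first P2rx7 window, on the minus strand, 249 bases before the start. No match overlapped another, and none of these motifs stands in either Entpd1 window or in the Nt5e window. None stands in the window of a second P2rx7 start, chr5:122650133-122650382, or in the Ada window, chr2:163750240-163750489 on the minus strand, which are not printed. Over 32851 windows of the same length, 11.1% hold GTGAAA, 16.1% hold TGCTGA and 4.46% hold TGACTCA. A match in a window describes its letters and not a bound site.

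The deposited values are a normalised signal per gene symbol whose scale is not stated, and column totals ran from 389650 to 475956. Differences are given on the log2(signal + 1) scale as knockout minus wild type, or cDKO minus single knockout, with limma's adjusted p over the 12251 genes that reached a signal of at least 1 in at least 3 libraries. A gene is called where that adjusted p is under 0.05. The signal of Prdm1 was 4.69, 1.18 and 3.27 in the cDKO libraries C2, A1 and A2 and 4.71, 0.41 and 3.66 in the Prdm1 cKO libraries A5, A6 and A9, against 6.45 to 24.85 in wild type. Maf was too low to be tested with the other genes: it stood at 0, 0.18 and 0.03 in cDKO libraries and at 0, 0 and 0.93 in the libraries labelled c-Maf cKO B10, B11 and C1, against 0.03 to 0.95 in wild type. The library labelled c-Maf cKO C1 therefore lay inside the wild-type range of Maf, as did A1 of cDKO, and A2 equalled its lowest value. At this low level Maf does not check the c-Maf labels of either genotype library by library, and directions drawn from them carry that limit. In the column order of the table, each knockout stands in a run next to wild-type libraries. Run 1 holds the 3 Prdm1 cKO and 7 wild-type libraries, and run 2 the 3 c-Maf cKO and 4 wild-type libraries. Run 3 holds the 3 cDKO and 5 wild-type libraries. What these runs were in the laboratory is not given, and no label matches wild-type libraries to a knockout. The code letters cut across the runs: cDKO A1 and A2 carry the letter of run 1, and the wild-type libraries of run 3 carry B. Tests within a run are therefore not known to be matched comparisons. Cd3e, Cd8a and Cd8b1 were above 0 in all 25 libraries. Of the 5 listed CD4 and regulatory T cell markers, Cd4 stood at 0 in 14 libraries. Foxp3 and Cd40lg stood at 0 in only 4 each, and Ikzf2 and Il2ra were above 0 in all. Over the 14 of 15 listed macrophage and monocyte markers in the table, the summed signal was 618 to 1259 in cDKO, 1655 to 4800 in Prdm1 cKO and 790 to 2056 in the c-Maf cKO libraries, against 538 to 2947 in wild type. Of these 14, 1 was called higher in Prdm1 cKO, with a median log2 difference of 2.52, and none was called in cDKO, with a median of -0.98. Ly6c2 alone averaged 649 in cDKO, 498 in Prdm1 cKO, 751 in c-Maf cKO and 682 in wild type. Outside Prdm1 cKO it made up much of the macrophage sum. Wild-type B4 had a sum of 2150 with 7 of the 14 markers at 0, so the sum does not follow all markers alike. Over 5 erythroid markers, the summed signal was 461 to 4236 in cDKO, 221 to 1840 in Prdm1 cKO and 15.8 to 133 in the c-Maf cKO libraries, against 1.38 to 1567 in wild type, and 3 of the 5 were called higher in cDKO. Melanoma markers summed to 97.8 to 1316 in cDKO, 657 to 1318 in Prdm1 cKO and 12.8 to 573 in c-Maf cKO. In wild type they ran from 6.69 in B6 to 3085 in B3. Dendritic cell markers summed to 74.3 to 261 in cDKO, 1194 to 4838 in Prdm1 cKO and 72.6 to 1196 in c-Maf cKO. The wild-type sums were 45.2 to 2047. In Prdm1 cKO most of this sum came from H2-Ab1 and Cd74, with means of 1252 and 1180, against 224 and 241 in wild type. Over the 8 dendritic cell markers, the median log2 difference in Prdm1 cKO was -0.33, and none was called.

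Entpd1 (CD39) was lower in cDKO and in Prdm1 cKO than in wild type, with its lowest values in cDKO. Its signal was 3.65, 1.76 and 2.15 in the cDKO libraries C2, A1 and A2, and 5.97, 6.6 and 18.57 in the Prdm1 cKO libraries A5, A6 and A9. The libraries labelled c-Maf cKO B10, B11 and C1 had 40.25, 40.46 and 67.02, and the 16 wild-type libraries ran from 11.16 to 52.93 with a median of 29.9. All 3 cDKO libraries lay under every wild-type library, 2 of the 3 Prdm1 cKO libraries did, and A9 lay inside the wild-type range. The mean was 2.52 ± 0.998 in cDKO (SD, n = 3), 10.4 ± 7.10 in Prdm1 cKO (n = 3) and 49.2 ± 15.4 in the c-Maf cKO libraries (n = 3), against 31.8 ± 13.1 in wild type (n = 16). The mean in cDKO was 7.94% of that in wild type, and the mean in Prdm1 cKO was 32.7% of it. In a bulk library, fewer cells carrying a transcript and less of it per cell cannot be told apart.

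The log2 difference of Entpd1 was -3.13 ± 0.37 (SE, adjusted p = 3.25e-05) for cDKO against wild type and stayed past the threshold in all 38 alternatives tried, with -3.15 ± 0.47 where the erythroid score was a covariate (limma, adjusted p = 0.00145). For Prdm1 cKO against wild type it was -1.57 ± 0.37 (limma, adjusted p = 0.0212). With the column run in the model, the difference for Prdm1 cKO was -1.27 ± 0.36 (limma, adjusted p = 0.108). An exact permutation test within run 1 gave p = 0.025, where 0.00833 is the smallest p that 3 against 7 libraries allow, and the same test within run 3 gave p = 0.0179 for cDKO, the smallest that 3 against 5 allow. With the macrophage score as a covariate, the Prdm1 cKO difference was -1.57 ± 0.45 (limma, adjusted p = 0.188), and A9, the Prdm1 cKO library of highest Entpd1, also had the highest macrophage sum, 4800. Without A9 the difference was -2.05 (adjusted p = 0.0184), without A5 it was -1.30 (adjusted p = 0.0802) and without A6 it was -1.36 (adjusted p = 0.131). For c-Maf cKO the difference was 0.70 ± 0.37 (limma, adjusted p = 0.813) against all wild type, and 0.09 with the column run in the model.

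Nt5e (CD73) was higher in cDKO. Its signal was 20.8, 20.9 and 22.15 in the cDKO libraries, 7.95, 18.18 and 16.22 in Prdm1 cKO and 7.13, 6.99 and 1.79 in the c-Maf cKO libraries, against 1.99 to 10.97 in wild type with a median of 5.61. Every cDKO library and 2 of the 3 Prdm1 cKO libraries lay above all 16 wild-type libraries, A5 lay inside their range, and the library labelled c-Maf cKO C1 lay just under it. The mean was 21.3 ± 0.752 in cDKO (SD, n = 3), 14.1 ± 5.43 in Prdm1 cKO (n = 3) and 5.30 ± 3.04 in the c-Maf cKO libraries (n = 3), against 6.38 ± 2.79 in wild type (n = 16). The log2 difference was 1.70 ± 0.35 for cDKO against wild type (limma, adjusted p = 0.00192), which held in all 38 alternatives, with 1.89 under the erythroid covariate (limma, adjusted p = 0.0122). It was 1.06 ± 0.35 for Prdm1 cKO (limma, adjusted p = 0.0757), not past the threshold. Without A5 the Prdm1 cKO difference was 1.40 (limma, adjusted p = 0.0426). For c-Maf cKO it was -0.28 ± 0.35 (limma, adjusted p = 0.883), and it changed sign to 0.23 without C1. Within column runs, the exact permutation p was 0.0179 for cDKO and 0.0833 for Prdm1 cKO.

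**Figure D1:**
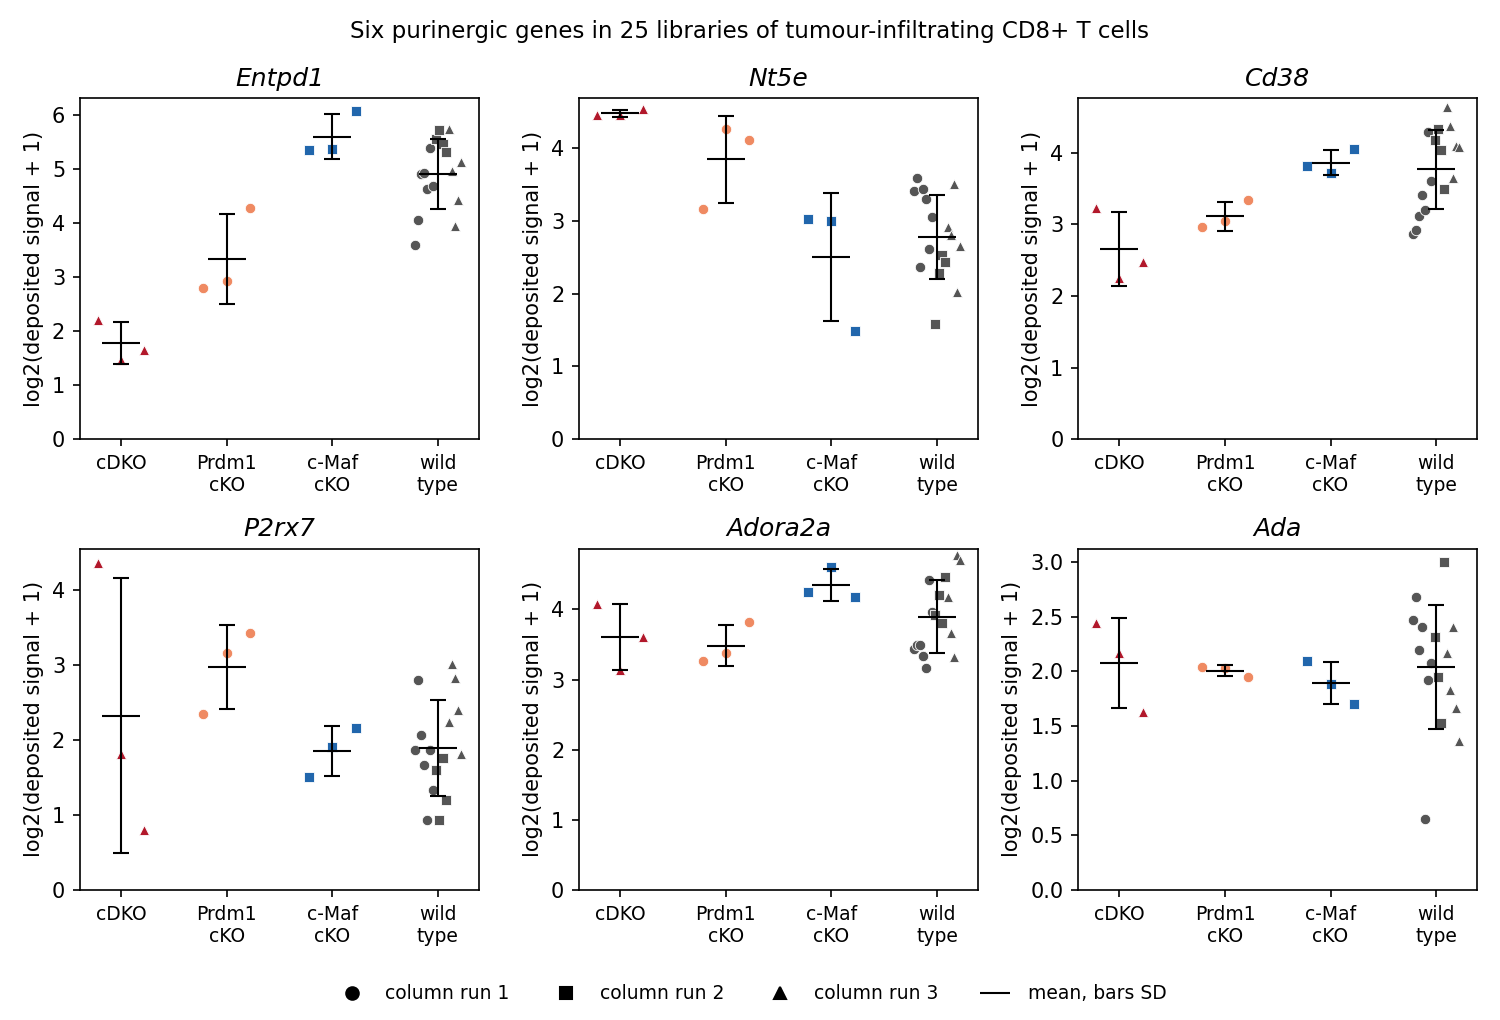
Signal of the 6 genes in every library, on the log2(signal + 1) scale, by genotype. Each point is a library, its shape gives the column run, and the bar shows the mean with the SD. Entpd1 in cDKO lies under all wild-type libraries and Nt5e in cDKO lies above them, while Ada overlaps in all groups.

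Read together by library, the enzyme that makes AMP and the enzyme that uses it were at opposite ends in cDKO. C2, A1 and A2 combined the 3 lowest Entpd1 signals of all 25 libraries with the 3 highest Nt5e signals. The library labelled c-Maf cKO C1 had the highest Entpd1 signal, 67.02, and the lowest Nt5e signal, 1.79. The Prdm1 cKO libraries differed among themselves, set against the wild-type ranges: A6 was low in Entpd1 and high in Nt5e, A5 was low in Entpd1 only, and A9 was high in Nt5e only.

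**Figure D2:**
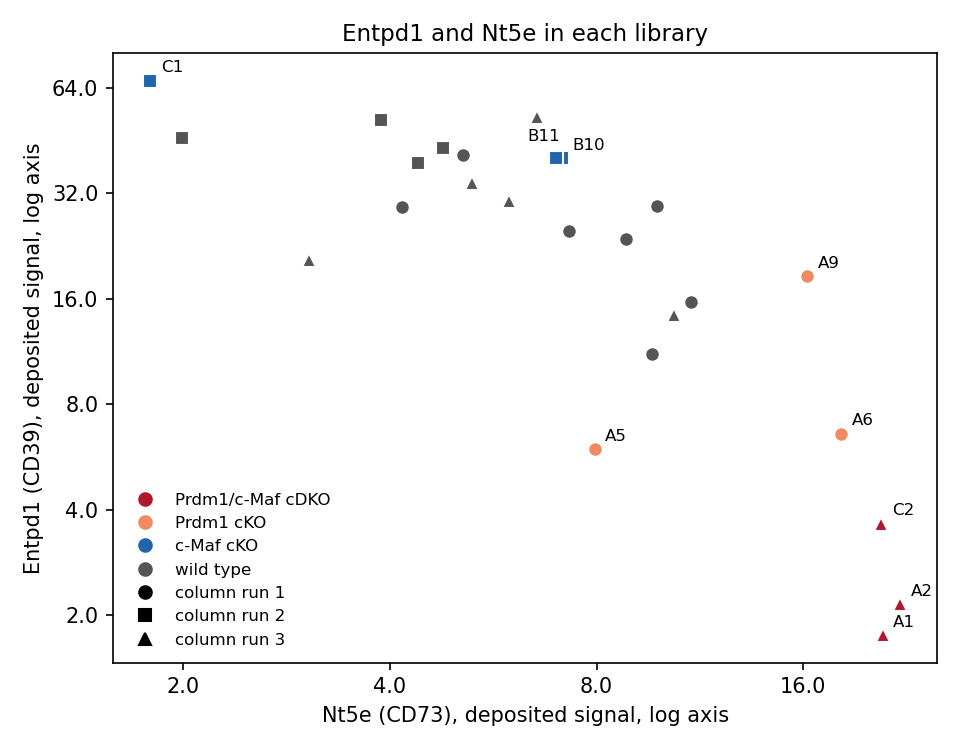
Entpd1 signal against Nt5e signal in the 25 libraries, both on log axes. Colours give the genotype, shapes give the column run, and the 9 knockout libraries are named. The 3 cDKO libraries sit at the lower right, with Nt5e from 20.8 to 22.15 and Entpd1 from 1.76 to 3.65.

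Cd38, the NAD-consuming surface enzyme, was also lower in cDKO. Its signal was 8.43, 3.76 and 4.55 in the cDKO libraries, 6.77, 7.26 and 9.11 in Prdm1 cKO and 13.15, 12.19 and 15.59 in the c-Maf cKO libraries, against 6.33 to 23.97 in wild type with a median of 13.5. A1 and A2 lay under all wild-type libraries, whereas C2 lay inside their range. All 3 Prdm1 cKO libraries lay inside the wild-type range, near the median of 8.17 of the 7 wild-type libraries in their own column run. The mean was 5.58 ± 2.50 in cDKO (SD, n = 3), against 13.6 ± 5.35 in wild type (n = 16). The log2 difference was -1.12 ± 0.30 for cDKO (limma, adjusted p = 0.0141), -0.65 ± 0.30 for Prdm1 cKO (limma, adjusted p = 0.207) and 0.10 ± 0.30 for c-Maf cKO (limma, adjusted p = 0.955). Leaving out A1 gave -0.91 (limma, adjusted p = 0.132) and leaving out A2 gave -1.02 (limma, adjusted p = 0.110), so the call in cDKO rested on these 2 libraries. They also had the highest erythroid marker sums, and with the erythroid score as a covariate the difference was -0.97 ± 0.38 (limma, adjusted p = 0.129). Within run 3, where wild-type Cd38 ran from 11.54 to 23.97, the cDKO libraries did not overlap with wild type (exact permutation p = 0.0179, the smallest possible).

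P2rx7, the ATP-gated channel, spread widely within cDKO and was called in no genotype. Its signal was 19.5, 2.51 and 0.74 in the cDKO libraries C2, A1 and A2, 4.08, 7.96 and 9.72 in Prdm1 cKO and 1.83, 2.76 and 3.45 in the c-Maf cKO libraries, against 0.9 to 7.11 in wild type with a median of 2.60. C2 had the highest and A2 the lowest P2rx7 signal of all 25 libraries. A6 and A9 of Prdm1 cKO lay above every wild-type library. The log2 difference was 0.43 ± 0.47 for cDKO (limma, adjusted p = 0.648) and -0.04 ± 0.47 for c-Maf cKO (limma, adjusted p = 0.989). The cDKO difference was -0.59 without C2 and 1.19 without A2, so no direction can be given. For Prdm1 cKO it was 1.08 ± 0.47 (limma, adjusted p = 0.185), and with the macrophage score as a covariate it was 0.40 (limma, adjusted p = 0.610). An exact permutation test within run 1 gave p = 0.025 for Prdm1 cKO, with means of 7.25 ± 2.89 in Prdm1 cKO (SD, n = 3) and 2.72 ± 1.63 in wild type (n = 7). P2rx7 is known in macrophages as well as T cells, and their part in the Prdm1 cKO values was not tested beyond that covariate.

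Adora2a, the adenosine receptor gene, was not called in any genotype. Its signal was 15.86, 7.82 and 11.23 in cDKO, 8.58, 9.37 and 13.11 in Prdm1 cKO and 18.04, 23.42 and 17.07 in the c-Maf cKO libraries, against 8 to 26.52 in wild type with a median of 13.5. A1 lay just under the wild-type range, and the other 8 knockout libraries lay inside it. The log2 differences were -0.29 ± 0.28 for cDKO (limma, adjusted p = 0.593), -0.41 ± 0.28 for Prdm1 cKO (limma, adjusted p = 0.425) and 0.45 ± 0.28 for c-Maf cKO (limma, adjusted p = 0.819). The cDKO difference was 0.03 when libraries were rescaled to equal CD3 signal, so its sign depends on the scaling. The CD8 T cell marker score, the mean log2(signal + 1) of those markers, ran from 7.33 to 8.18 in cDKO, 7.44 to 7.77 in Prdm1 cKO and 8.18 to 8.27 in the c-Maf cKO libraries, against 7.01 to 8.54 in wild type.

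Ada, which removes adenosine, was called in no genotype, and the groups overlapped. Its signal was 4.43, 3.5 and 2.09 in cDKO, 3.11, 3.08 and 2.86 in Prdm1 cKO and 3.27, 2.7 and 2.26 in the c-Maf cKO libraries, against 0.57 to 7.03 in wild type with a median of 3.36. All 9 knockout libraries lay inside the wild-type range. The log2 differences were 0.04 ± 0.31 for cDKO (limma, adjusted p = 0.960), -0.03 ± 0.31 for Prdm1 cKO (limma, adjusted p = 0.968) and -0.14 ± 0.31 for c-Maf cKO (limma, adjusted p = 0.929). These standard errors leave room for changes of moderate size in either direction.

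**Figure D3:**
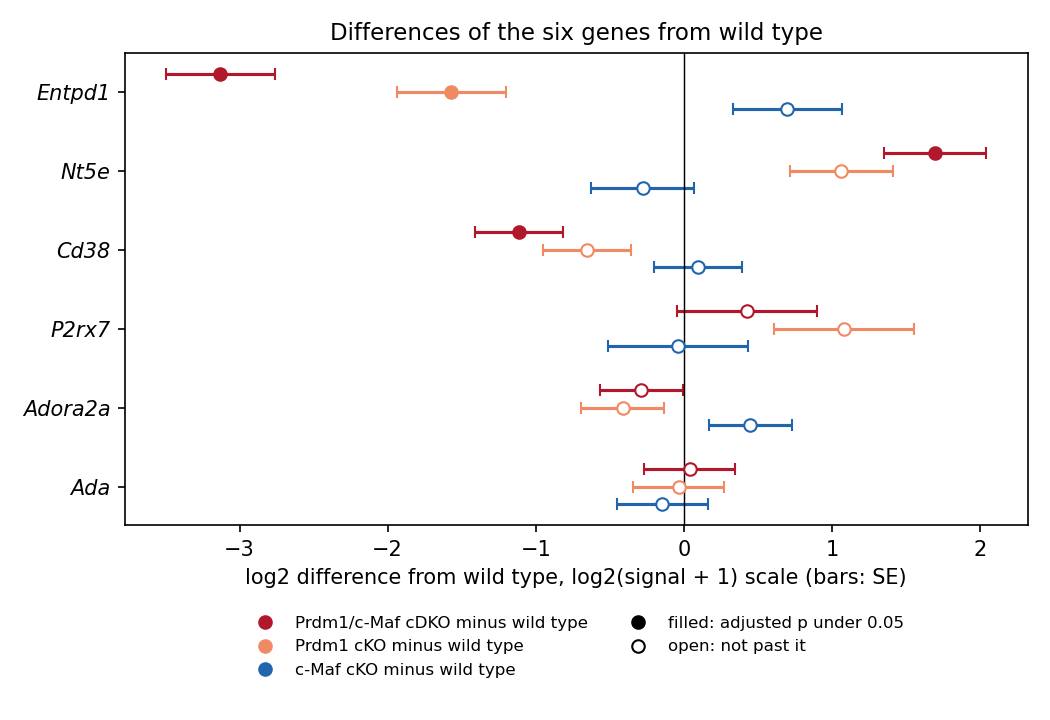
Log2 differences of the 6 genes from wild type, knockout minus wild type, with bars for the SE. Filled points have an adjusted p under 0.05: Entpd1, Nt5e and Cd38 in cDKO and Entpd1 in Prdm1 cKO.

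Counted over the 6 genes, 3 were called in cDKO against wild type, 1 higher and 2 lower, where 11.9% of all tested genes were called, 5.09% higher and 6.85% lower. In Prdm1 cKO 1 was called, in the lower direction, where 3.45% of all tested genes were called, 1.58% higher and 1.87% lower. In c-Maf cKO none was called, and limma called 0% of all tested genes there. At an unadjusted p under 0.05, 0 of the 6 and 755 of all tested genes passed in c-Maf cKO. The 6 genes had a median log2 difference of -0.12 for cDKO, -0.22 for Prdm1 cKO and 0.03 for c-Maf cKO, beside medians of -0.03, -0.02 and 0.00 over all tested genes. These comparisons share the 16 wild-type libraries and are not independent of each other. Entpd1 and Nt5e are among the genes called in cDKO, and their directions were part of the choice. The counts of the 6 genes are therefore a description and no support.

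Set directly against each other, cDKO and Prdm1 cKO differed in none of the 6 genes at the threshold. Of all tested genes, 0.392% were called there (0.0653% higher and 0.327% lower). At an unadjusted p under 0.05, 1544 of the 12251 tested genes passed, and so did 1 of the 6. That gene was Entpd1, with -1.56 ± 0.48 for cDKO minus Prdm1 cKO (limma, adjusted p = 0.136). Its lower mean in cDKO is therefore not shown to differ from that in Prdm1 cKO, although the 3 cDKO libraries, at 3.65 or less, lay under the 3 Prdm1 cKO libraries, at 5.97 or more. The Nt5e difference between these groups was 0.63 ± 0.45 (limma, adjusted p = 0.610). Between cDKO and c-Maf cKO, 3 of the 6 genes were called, where 9.39% of all tested genes were called, 3.78% higher and 5.61% lower. That count again includes Entpd1 and Nt5e, chosen for their directions, and is a description only. Entpd1 was lower in cDKO by -3.83 ± 0.48 (limma, adjusted p = 0.000114), Cd38 was lower by -1.21 ± 0.39 (limma, adjusted p = 0.0464) and Nt5e was higher by 1.98 ± 0.45 (limma, adjusted p = 0.00700). Of these, Cd38 stayed past the threshold in 18 of 38 alternatives. The 2 groups lie in different column runs, and with the run in the model the Nt5e difference was 1.41 (limma, adjusted p = 0.221) and the Cd38 difference -1.37 (limma, adjusted p = 0.113). Leaving out the library labelled c-Maf cKO C1 gave -1.12 for Cd38 (adjusted p = 0.129) and 1.47 for Nt5e (adjusted p = 0.0561). The test of whether the double deletion departs from the sum of both single ones called none of the 6 genes, where 0.00816% of all tested genes were called. For Entpd1 that departure was -2.26 ± 0.60 (limma, unadjusted p = 0.000903, adjusted p = 0.127).

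Among the wild-type libraries alone, where no gene was deleted, the 6 genes varied widely. The highest wild-type library exceeded the lowest by 4.74 times for Entpd1, 5.51 times for Nt5e, 3.79 times for Cd38, 7.90 times for P2rx7, 3.32 times for Adora2a and 12.3 times for Ada. The wild-type means also differed between column runs, without a test: the mean of Entpd1 was 25.04 ± 9.80 in run 1 (SD, n = 7), 45.0 ± 5.34 in run 2 (n = 4) and 30.5 ± 14.8 in run 3 (n = 5). Nt5e averaged 7.97 ± 2.55, 3.76 ± 1.24 and 6.24 ± 2.67 in the same runs. In all, 19 relations were computed over the 16 wild-type libraries, each with 100000 permutations. The permutations took no account of the column runs, so their p-values also take in differences between runs. Values within run 1 carry no p.

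Entpd1 followed Prdm1 across wild-type libraries, with Pearson's r = 0.914 (permutation p = 1e-05, adjusted 0.00019) and Spearman's rho = 0.938 (permutation p = 1e-05, adjusted 0.00019), the smallest p that these permutations can give. Without B3 and B5, the libraries farthest from the median of Prdm1, r was 0.919, and within run 1 it was 0.871 over 7 libraries. Runs 2 and 3 hold 4 and 5 wild-type libraries, too few for a value of their own. Ranked by this correlation, Prdm1 had rank 5 of 12250 genes for Entpd1. Cd38 also followed Prdm1, with r = 0.603 (permutation p = 0.0135, adjusted 0.0288) and rho = 0.556 (adjusted 0.0574). Its r was 0.694 without B3 and B5 and 0.932 within run 1, above the 0.871 of Entpd1 there. Prdm1 had rank 472 of 12250 genes for Cd38. Nt5e ran against Prdm1, with r = -0.597 (permutation p = 0.0152, adjusted 0.0288) and rho = -0.547 (adjusted 0.0602). Without B3 and B5 the value for Nt5e was -0.378, so that relation rests on those 2 libraries. For P2rx7 r was -0.519 (permutation, adjusted p = 0.0696), for Adora2a 0.45 (permutation, adjusted p = 0.128) and for Ada -0.149 (permutation, adjusted p = 0.613). Within run 1, r was -0.397 for Nt5e, -0.511 for P2rx7, 0.60 for Adora2a and -0.43 for Ada, without a test.

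**Figure D4:**
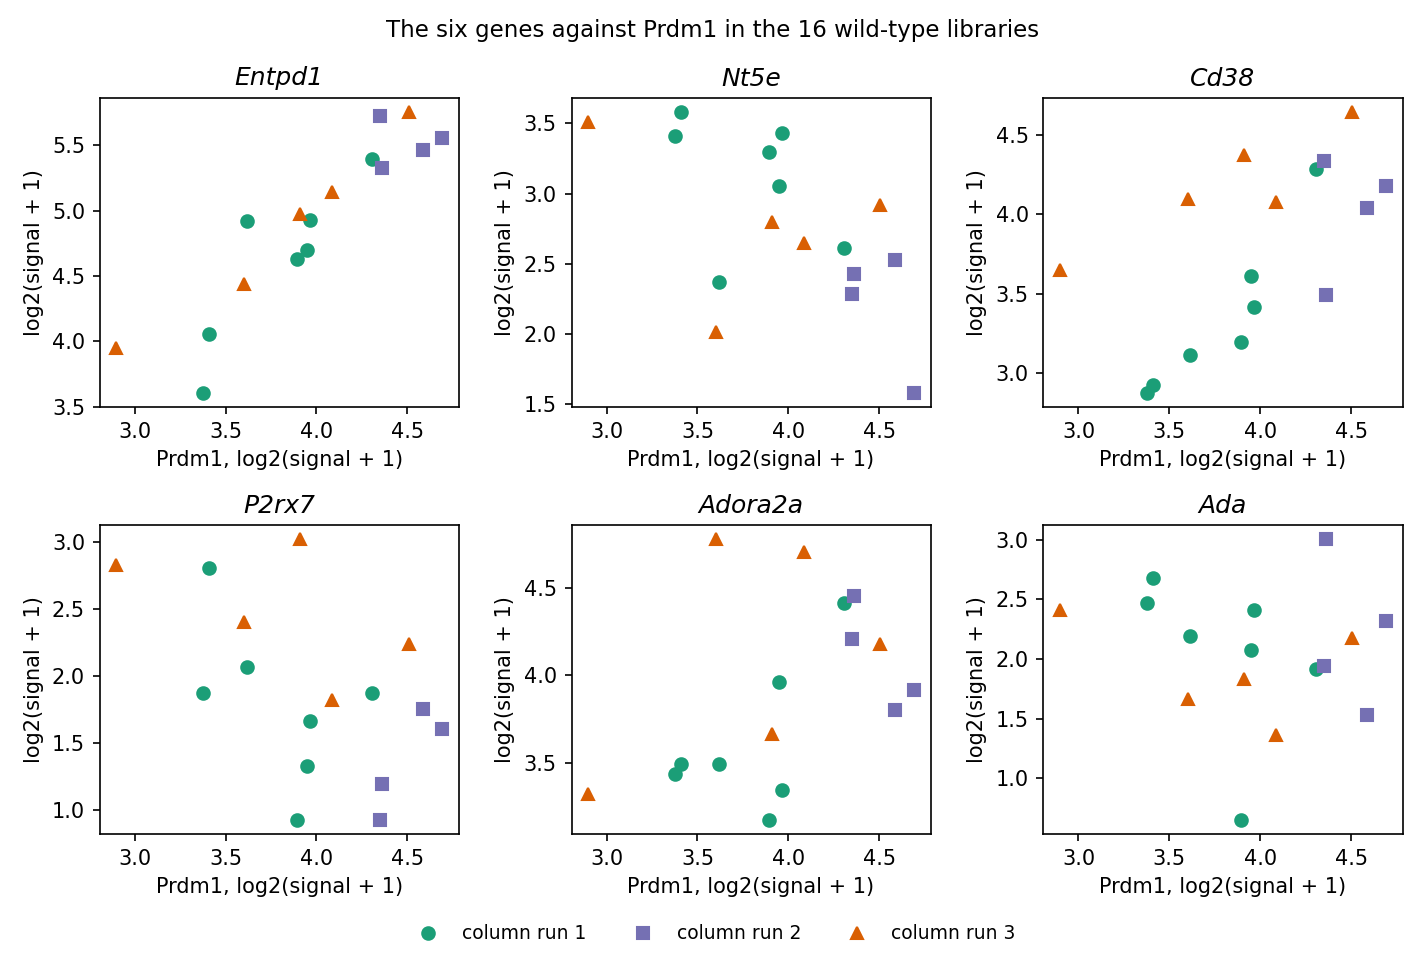
The 6 genes against Prdm1 in the 16 wild-type libraries, both on the log2(signal + 1) scale. Each point is a library, and colour and shape give its column run. Over all 16 libraries, Entpd1 lies close to a line with Prdm1, at r = 0.914, and the other 5 genes scatter more. Within run 1, r was 0.932 for Cd38 and 0.871 for Entpd1.

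Between Entpd1 and Nt5e, r was -0.624 and rho -0.571 across wild-type libraries, given as a description because their opposition was part of the choice. The value of r was -0.529 without A4 and B5 and -0.662 within run 1. The level of CD8 T cell markers moved with several of the genes. Adora2a followed the CD8 T cell marker score with r = 0.80 (permutation p = 0.00012, adjusted 0.00114) and rho = 0.803 (adjusted 0.00304), and r was 0.856 without A3 and B3 and 0.839 within run 1. Cd38 followed it with r = 0.611 (permutation, adjusted p = 0.0277) and had 0.812 within run 1. Nt5e ran against it with r = -0.689 (permutation, adjusted p = 0.0201), but r was -0.281 within run 1. For Entpd1 the value was 0.637 (permutation, adjusted p = 0.0277), and it was 0.359 without A3 and B3, on which it rests, and 0.55 within run 1. Against the macrophage score, r was -0.637 for Cd38 (permutation, adjusted p = 0.0277), -0.606 for Adora2a (permutation, adjusted p = 0.0288), -0.196 for Entpd1 and 0.185 for Nt5e (permutation, adjusted p = 0.548 for both).

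The genes whose pattern over all 25 libraries was most like that of Entpd1 were Ctsd with r = 0.941, Glrx with 0.939, Havcr2 with 0.927, Gpd2 with 0.925 and Prf1 with 0.917. For Nt5e they included Usp28 with r = 0.901, Ssh2 with 0.897, Il7r with 0.892 and Pde2a with 0.891. These correlations include the difference between genotypes and are given as a description, with no test. Over the 16 wild-type libraries alone, Entpd1 was closest to Havcr2 with r = 0.945, 1700017B05Rik with 0.938, Cblb with 0.928, Srgap3 with 0.915 and Prdm1 with 0.914. Nt5e was then closest to Rapgef6 with r = 0.919, D5Ertd605e with 0.915, Sh3bp5 with 0.881, E030030I06Rik with 0.866 and Gm14420 with 0.851. Havcr2, which encodes the inhibitory receptor TIM-3, was among the 5 closest to Entpd1 in both sets.

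Beside these 6 genes, 53 other genes of extracellular nucleotide and adenosine handling were listed, of which 52 are in the table and 36 passed the filter on low values. The list was chosen with earlier results of these data known, so its counts are a description and no support. In cDKO 6 of the 36 were called higher and 2 lower, or 22.2%, beside 11.9% of all tested genes, and their median log2 difference was -0.07. With the erythroid score as a covariate, 2 of the 36 were called in cDKO, beside 693 of all 12251 tested genes. In Prdm1 cKO 2 were called higher, or 5.56%, beside 3.45%, and in c-Maf cKO none was. Of the genes called higher in cDKO, Acpp and Dpp4, which act at the cell surface, held in every alternative. Both were higher in A1 and A2 than in C2, as the erythroid marker sum was, and with the erythroid score as a covariate their differences were 1.19 for Acpp (limma, adjusted p = 0.0234) and 1.06 for Dpp4 (limma, adjusted p = 0.0255). Acpp, an acid phosphatase that makes adenosine from AMP in mouse sensory neurons, had 4.78, 7.18 and 9.16 in cDKO, against 0.77 to 3.75 in wild type (log2 difference 1.37 ± 0.25, limma adjusted p = 0.000718). The 3 Prdm1 cKO libraries, at 4.15 to 4.43, also lay above all wild-type libraries in Acpp, without passing the threshold. Dpp4 encodes CD26, which in humans holds adenosine deaminase at the cell surface. Its signal was 21.4, 25.2 and 36.22 in cDKO, against 6.63 to 18.65 in wild type (log2 difference 1.20 ± 0.22, limma adjusted p = 0.000965), and no cDKO library overlapped with wild type.

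Within the cell, genes of adenosine uptake and use moved in both directions in cDKO. Slc29a1, the equilibrative transporter through which adenosine crosses the membrane, was lower, with 21.44, 14.38 and 11.82 in cDKO, against 21.14 to 46.14 in wild type (log2 difference -0.99 ± 0.22, limma adjusted p = 0.00405). C2 reached the lower edge of the wild-type range, and the call was lost without A2 and under CD3 rescaling, where the adjusted p was 0.0931, and with the erythroid covariate it was 0.0659. Adk, the kinase that turns adenosine back into AMP, had 38.4 and 43.49 in A1 and A2 and 9.53 in C2, against 6.68 to 18.02 in wild type (log2 difference 1.11 ± 0.32, limma adjusted p = 0.0209). The erythroid marker sum was 2269 in A1 and 4236 in A2, and 461 in C2, and without A1 or A2 the call was lost. A9 of Prdm1 cKO and B4 of wild type, next in erythroid sum with 1840 and 1567, had 6.77 and 9.01 for Adk. With the erythroid score as a covariate, the difference was 0.78 (limma, adjusted p = 0.256). A1 and A2 are both cDKO and highest in erythroid sum, and the source of their Adk signal was not tested. Ampd1, which deaminates AMP, had 1.06, 0.8 and 2.02 in cDKO, against 0 to 0.35 in wild type, a log2 difference of 1.07 ± 0.22. It passed the filter only through C2, A2 and A9 of Prdm1 cKO, where it is high, so its call, 1 of the 6 counted as higher, is a description and no support. Lrrc8a, a subunit of the volume-regulated anion channel, had 6.58, 9.7 and 15.13 in cDKO, against 2.43 to 7.11 in wild type (log2 difference 1.03 ± 0.27, limma adjusted p = 0.0130), and lost its call without A1 or A2 and with the erythroid covariate (adjusted p = 0.123).

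The other 2 calls in cDKO were small. Nt5c3, a cytosolic nucleotidase, averaged 33.2 ± 1.40 in cDKO (SD, n = 3), against 25.02 ± 2.56 in wild type (n = 16), a log2 difference of 0.40 ± 0.13 (limma, adjusted p = 0.0422) that held in 19 of 38 alternatives. Pnp, which splits inosine, averaged 6.60 ± 0.774 in cDKO, against 11.3 ± 3.01 in wild type, a log2 difference of -0.66 ± 0.21 (limma, adjusted p = 0.0372) that held in 28 of 38. Its near-identical copy Pnp2 was listed at 0 in all 3 cDKO libraries, so the split of signal between the copies is uncertain.

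In Prdm1 cKO, Bst1, an NAD-consuming relative of CD38, had 5.38, 4.89 and 12.54 in A5, A6 and A9, against 0 to 4.89 in wild type (log2 difference 1.96 ± 0.43, limma adjusted p = 0.0147). P2ry2, a receptor for ATP and UTP, had 1.61, 0.61 and 5.76, against 0 to 3.18 in wild type (log2 difference 1.38 ± 0.34, limma adjusted p = 0.0250). P2ry2 reached 1 only in A5, A9 and wild-type A4, so it passed the filter mainly through the group where it is high. Its call is a description and no support. A9 was the highest library in both genes and in the macrophage sum, and both calls were lost without it. With the macrophage score as a covariate, the adjusted p was 0.364 for Bst1 and 0.398 for P2ry2, and with the column run in the model the differences were 1.52 for Bst1 (limma, adjusted p = 0.112) and 1.12 for P2ry2 (limma, adjusted p = 0.143). Neither gene was called in cDKO.

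**Figure D5:**
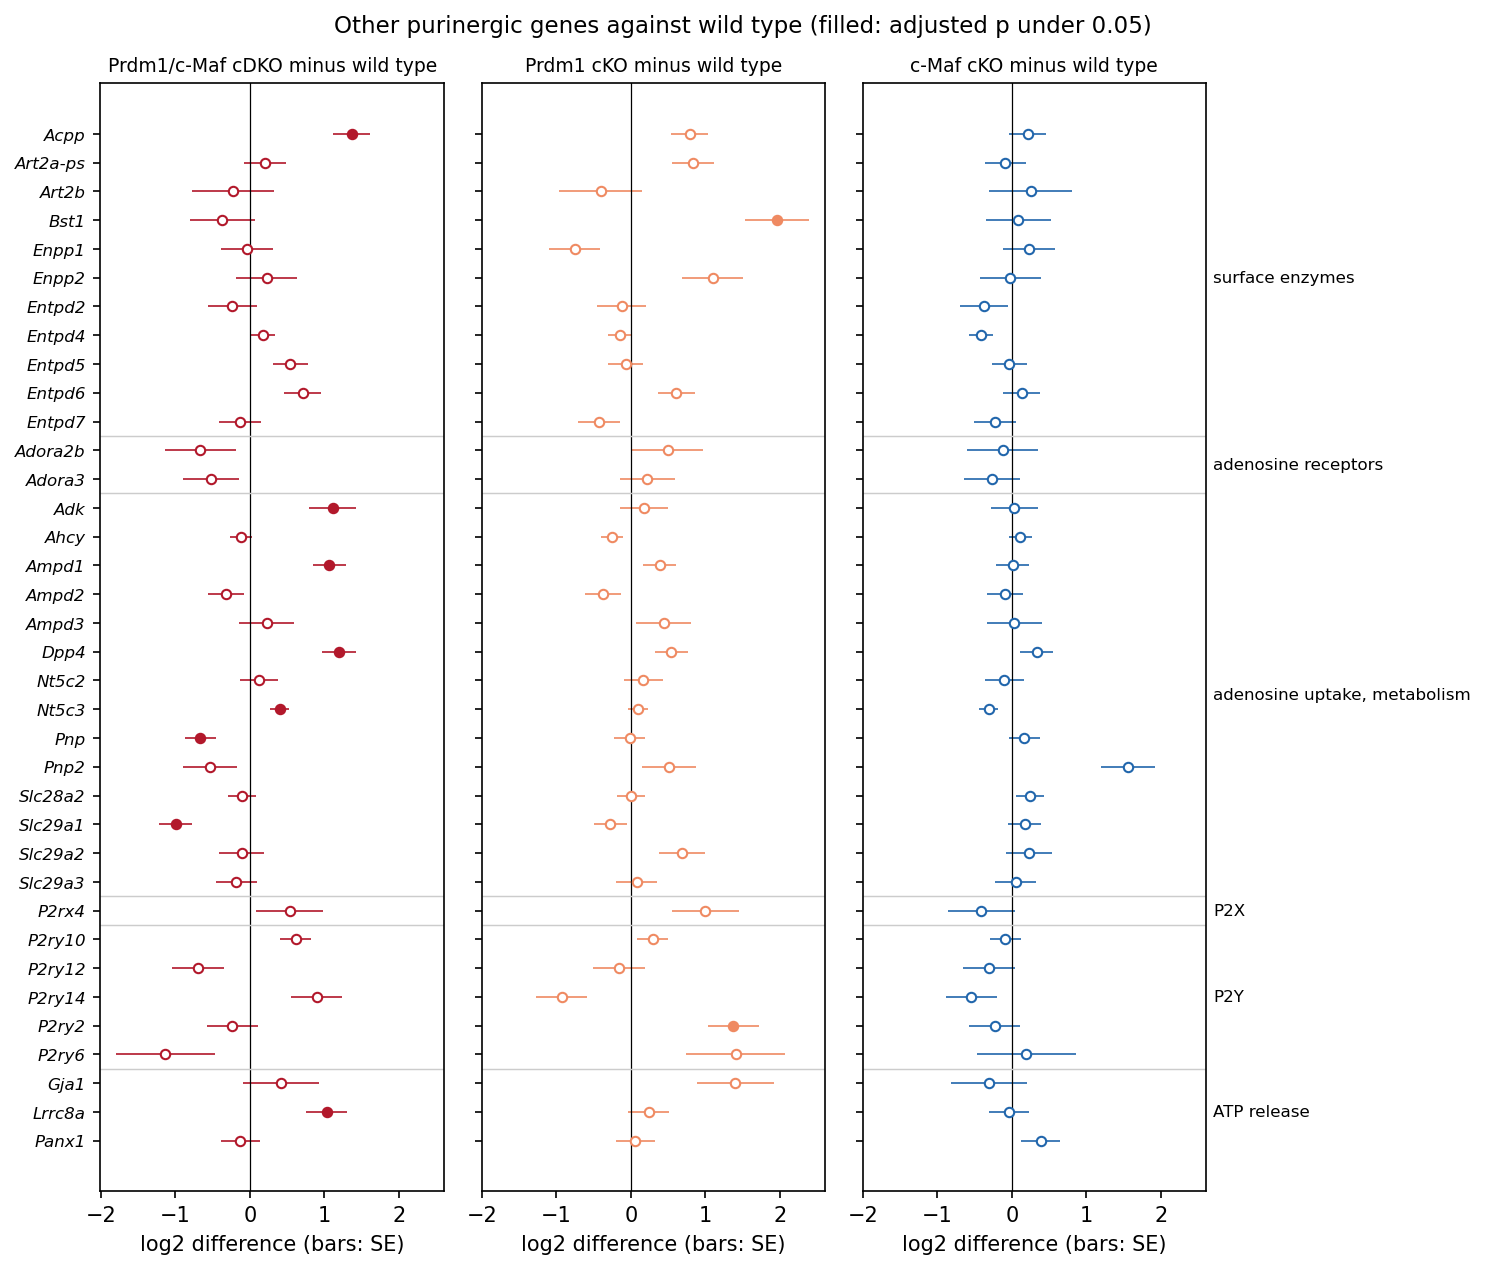
Log2 differences from wild type, knockout minus wild type, of the 36 other purinergic genes that passed the filter, with bars for the SE and 1 panel per knockout. Filled points have an adjusted p under 0.05: 8 genes in cDKO, 2 in Prdm1 cKO and 0 in the c-Maf cKO libraries.

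The adenosine receptor signals through cAMP, and 19 genes that make, sense or degrade cAMP were listed, of which 17 passed the filter. In cDKO 2 were called higher and 1 lower, or 17.6%, beside 11.9% of all tested genes, 5.09% higher and 6.85% lower. Their median log2 difference was 0.15, beside -0.03 over all tested genes. Neither single knockout had a call among them. This list too was chosen with earlier results of these data known, so its counts are a description and no support. Pde2a, a phosphodiesterase that degrades cAMP and cGMP, had 41.72, 90.28 and 71.98 in cDKO and 17.86, 71.22 and 46.11 in Prdm1 cKO, against 6.84 to 26.73 in wild type. All cDKO libraries lay above wild type (log2 difference 1.96 ± 0.37, limma adjusted p = 0.00110), and the call held in all 38 alternatives, with an adjusted p of 0.0214 under the erythroid covariate. Crtc2, a coactivator of cAMP-responsive transcription, averaged 45.1 ± 11.9 in cDKO (SD, n = 3), against 30.7 ± 3.57 in wild type (n = 16), with a log2 difference of 0.52 ± 0.14 (limma, adjusted p = 0.0147) that was lost without A1 or A2 and with the erythroid covariate (adjusted p = 0.148). Pde4a, another cAMP phosphodiesterase, averaged 0.893 ± 0.640 in cDKO, against 2.20 ± 0.776 in wild type, with a log2 difference of -0.78 ± 0.25 (limma, adjusted p = 0.0416) that held in 22 of 37 alternatives.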

How the data were processed

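Bulk RNA sequencing of tumour-infiltrating CD8+ T cells was deposited as 1 table, in which the authors give each symbol a normalised signal in each library. Per the submitters' processing notes, TopHat, RSEM, DESeq and the mouse build mm9 were used, and the sources used here give no versions, roles or order. The scale is not stated and low values show no whole-read steps, so the depth is unknown and no count test or counting interval is given. Libraries were assigned to genotypes by the genotype in their column names and are called by the code there. Values were taken as log2(signal + 1), which understates changes of low genes. The 12251 of 23366 symbols that reached 1 in 3 or more libraries were fitted with limma 3.58.1 (trend, robust) in R 4.3.3, over all 25 libraries with genotype as the only term, adjusted by Benjamini-Hochberg. The fit was tested on simulated data. Exact permutation tests between groups and the likeness correlations were computed in R. The wild-type r and rho used scipy 1.17.1, and their permutations were run in Python. The members and gene lists were chosen with earlier results of these data known. All 6 members are named, list genes are named where called against wild type, and likeness names the 5 highest correlations, of which 1 is not reported here. Alternatives changed the pseudocount, filter, scaling, limma options, samples and covariates, and left out each library; the CD8 T cell and erythroid scores as covariates were added after seeing the data. Promoters come from RefSeq on GRCm38.p6, a later build than mm9, and no coordinate was moved between builds.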

Additional observations from a re-analysis of the deposited data

How the results depend on the processing

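Over 38 alternatives, Entpd1 kept its call in cDKO against wild type (adjusted p from 5.84e-06 to 0.00164), and so did Nt5e (0.000179 to 0.0243). Cd38 there ranged from 0.00145 to 0.132. The number of the 6 genes called in Prdm1 cKO against wild type, 1 as reported, was 2 with a pseudocount of 10, 0 with the column run, library letter, macrophage score or CD8 T cell score as a covariate, and 0 to 1 when 1 library was left out. Entpd1 there had adjusted p from 0.00789 to 0.188, and 0.0503 with the CD8 T cell score. For cDKO against Prdm1 cKO the number was 1 with the library letter, where Entpd1 was -1.87 (adjusted p = 0.0434). For cDKO against c-Maf cKO, 3 as reported, it was 1 with the column run, where Nt5e was 1.41 (adjusted p = 0.221), and 1 to 3 when 1 library was left out. The cause of these shifts was not tested.

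Only differences that were not called changed sign. In cDKO against wild type, Ada was -0.00028 (pseudocount 10) and -0.018 (CD8 T cell score), Adora2a 0.025 (CD3 rescaling) and 0.013 (CD8 T cell score), and P2rx7 -0.14 (column run) and -0.0075 (letter). In Prdm1 cKO against wild type, Ada was 0.0064 (pseudocount 0.1), 0.00056 (median-of-ratios rescaling), 0.24 (CD3 rescaling) and 0.11 (erythroid score), and Adora2a 0.024 (macrophage score). In c-Maf cKO against wild type, Cd38 was -0.15 (CD3 rescaling), -0.14 (column run), -0.30 (letter) and -0.094 (CD8 T cell score), Nt5e 0.29 (column run) and 0.098 (letter), and P2rx7 0.48 (column run). In cDKO against Prdm1 cKO, Adora2a was -0.39 (column run), -0.038 (letter) and -0.52 (macrophage score), and in cDKO against c-Maf cKO P2rx7 was -0.62 (column run). With 1 library left out, the ranges that crossed 0 were -0.14 to 0.27 for Ada and -0.59 to 1.19 for P2rx7 in cDKO against wild type, -0.13 to 0.030 for Ada in Prdm1 cKO against wild type, and -0.54 to 0.23 for Nt5e and -0.19 to 0.14 for P2rx7 in c-Maf cKO against wild type. Against Prdm1 cKO, cDKO ranged from -0.11 to 0.36 for Adora2a, -0.11 to 0.30 for Ada and -1.67 to 0.11 for P2rx7. Against c-Maf cKO it ranged from -0.55 to 1.23 for P2rx7, and the departure from additivity of P2rx7 from -1.63 to 0.15.

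Over all genes, cDKO against wild type called 1463 (624 higher, 839 lower), 511 without A2, 738 without A1, 693 with the erythroid score, and 719 higher and 208 lower under CD3 rescaling, which moved the median of all genes by 0.26. Prdm1 cKO against wild type called 423 (194 higher, 229 lower), 13 with the macrophage score, 36 with the letter, 59 with the column run, 78 without A9 and 110 without A6. There, median-of-ratios rescaling gave 293 higher and 211 lower, and CD3 rescaling 274 higher and 58 lower, with a median shift of 0.30. Over all alternatives the all-gene counts ran from 13 to 689 for Prdm1 cKO and 0 to 17 for c-Maf cKO against wild type, 0 to 169 (48 reported) for cDKO against Prdm1 cKO, 132 to 1312 (1150 reported) for cDKO against c-Maf cKO and 0 to 92 (1 reported) for additivity. The 53 listed genes gave 2 to 10 calls in cDKO (8 reported) and 0 to 4 in Prdm1 cKO (2 reported). No paired analysis was possible because the column names carry no replicate number. Each knockout has 3 libraries, the depth is unknown, and a filter at 10 leaves out Ada and P2rx7.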
